A study of Mus musculus with 9 samples.

Results

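The aortic transcriptome under a high fat diet combined with iron injections was compared with that under chow. The series holds 9 aortas of Apoe-/- mice, aged 6 to 8 weeks at the start and then kept on their regimen for 24 weeks. The mice carry no functional gene for apolipoprotein E, which lets the liver take up lipoprotein remnants. The comparison takes 6 of these 9 aortas: 3 on the chow diet (CD) and 3 on the high fat diet that also received ammonium iron(III) citrate by intraperitoneal injection (HFD_IO). The other 3 aortas received the high fat diet alone (HFD) and are used here to show where the diet without iron lay relative to those ends. All 9 animals are labelled Apoe-/-, so no group is free of that deletion. The diet and the injections were given together, and a difference between HFD_IO and CD cannot be assigned to either of them from these 6 aortas. The iron dose, the mouse strain, the sex of the animals, pooling of aortas and the time of day of harvest are not stated in the labels, nor whether the control groups were injected. P-values measure only the spread between these samples, which may in part be technical.

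In atherosclerosis, lipoproteins retained in the arterial wall are taken up by macrophages, which store the cholesterol as droplets in foam cells. Smooth muscle cells of the wall can lose contractile proteins and take up matrix-producing or cartilage-like states, and advanced plaques calcify. Macrophages also clear senescent red cells, break down heme with heme oxygenase, store the released iron in ferritin and export it through ferroportin, so lipid and iron handling meet in the same cell type.

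Each library gave between 16660963 and 18308450 reads in genes, recovered from the deposited values. In a gene of 1 kilobase, 1 read was worth 0.0541 to 0.0615 FPKM (fragments per kilobase of gene, scaled per library, the deposited unit). The implied divisor was not the recovered reads: it was 18392940 in CD_1 against 16660963 reads, and 16249693 in HFD_3 against 18158642. It lay above the reads in every CD library and closer to them in HFD_IO. The part of this scaling in the group differences was not tested apart from the other scalings given below. On the first principal component of log2(FPKM + 1), which held 47.7% of the variance, the CD libraries lay between -47.9 and -43.2, the HFD libraries between 5.06 and 17.5, and the HFD_IO libraries between 29.7 and 44.2. The second component, with 25.9%, set the HFD libraries (20.2 to 46.0) apart from both CD (-15.6 to 0.472) and HFD_IO (-27.6 to -20.2). CD_1 stood apart from the other 8 libraries on the third component, at 33.3 against -13.5 to 8.59. Its T cell and NK cell marker level was 2.26, against 1.29 and 0.82 in the other CD libraries, as a mean of log2(FPKM + 1) over 14 genes. HFD_2 and HFD_IO_2 were at similar levels, 2.27 and 2.05, so this list does not set CD_1 apart from the other 8 libraries. The aorta label was matched by its defining markers: the contractile smooth muscle genes averaged 5.96 or more on the same scale in every library. Apoe transcripts were listed at 10.9 to 14.5 FPKM in CD and at 17.5 to 21.9 FPKM in HFD_IO. That value does not check the genotype, since wild-type aortas were not analysed here and a gene-wide FPKM does not show which exons were read.

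Macrophage, lysosome, cartilage and iron-handling genes were higher in HFD_IO, and smooth muscle, endothelial and heat shock genes were lower. Of 13883 genes tested, 4516 differed between HFD_IO and CD at an adjusted p below 0.05 by limma, which is 32.5%. In HFD_IO 2427 genes rose (17.5%) and 2089 fell (15%), and these shares are the background for the counts of each gene list below. Genes under 1 FPKM in every CD library were tested only because of their level in HFD or HFD_IO libraries. Counts of lists that hold such genes partly reflect that filter. The rises were larger than the falls: 920 of the genes that rose and 442 of those that fell changed by at least 1 on the log2 scale, and 98 and 2 by at least 3. Every HFD_IO library lay above every CD library in 3378 genes (24.3%) and below it in 3147 (22.7%). In the text below, "rose" and "fell" are used only for genes past that threshold, and changes are log2 differences of FPKM + 1, a scale that understates the change of weakly expressed genes. Rescaling to TPM, which fixes the sum of all length-scaled values, moved the median change of all genes from -0.01 to -0.23 and the split to 1528 genes higher and 3800 lower, against 2427 and 2089.

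The largest rise was that of Spp1 (osteopontin, ENSMUSG00000029304, chromosome 5, 104435118 to 104441050, plus strand, GRCm38), a secreted phosphoprotein of activated macrophages and of mineralised matrix. It was measured at 13.7, 9.25 and 10.6 FPKM in the CD libraries and at 4558, 3531 and 2352 in the HFD_IO libraries. The groups lay far apart, with a log2 change of 8.13 (SE 0.25, limma adjusted p = 1.3e-06). Ibsp, bone sialoprotein, was between 0.0526 and 0.372 FPKM in CD and at 62.1, 62.6 and 139 in HFD_IO (6.07, SE 0.46, adjusted p = 3.8e-05). Mmp12, the macrophage elastase, was at 3.76, 2.45 and 2.30 FPKM in CD and 319, 184 and 138 in HFD_IO, a change of 5.74.

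The other genes among the 15 largest rises came from several settings. Chad and Col2a1, a cartilage matrix protein and the chain of type II collagen, rose by 5.63 and 4.71. Npy, the sympathetic neuropeptide Y, rose by 5.53, from at most 0.388 FPKM in any CD library to 60.6, 50.6 and 46.3. Lgals3, Gpnmb, Trem2, Cd5l and Clec4d, which code for galectin-3, a lysosomal glycoprotein, a lipid-sensing receptor, a secreted scavenger protein and a C-type lectin of myeloid cells, rose by 5.04, 5.01, 4.42, 4.63 and 4.92. Atp6v0d2, a proton pump subunit of macrophages and osteoclasts, rose by 4.60, and the lysosomal protease gene Ctss by 4.33. Adam8, a membrane metalloprotease of myeloid cells, and Rnf128, a membrane ubiquitin ligase, rose by 4.76 and 4.79. None of these 15 genes overlapped between the 2 groups, which the naming rule required.

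The largest falls were those of the inducible Hsp70 genes. Hspa1b (ENSMUSG00000090877, chromosome 17, 34956436 to 34959238, minus strand, GRCm38) was at 141, 233 and 132 FPKM in CD and at 9.07, 12.3 and 30.1 in HFD_IO, and fell by 3.35 (SE 0.40, adjusted p = 0.00034). Its neighbour Hspa1a fell by 3.28. The pair are near-identical copies, so reads may have been split between them. Actn2, an alpha-actinin, was at 19.7, 14.2 and 9.49 FPKM in CD and 1.15, 1.34 and 0.896 in HFD_IO (-2.81). Npas4, an activity-induced transcription factor, Nfil3, a clock-controlled repressor, and Meg3, a long noncoding RNA, had changes of -2.65, -2.23 and -2.04. Xirp1, an actin-binding repeat protein of striated muscle, Dnajb4, an Hsp40 cochaperone, and Kcnc4, a voltage-gated potassium channel, had changes of -2.13, -2.03 and -2.12. Upk3b, a uroplakin of mesothelium, fell by 2.40, and the metalloprotease gene Adam33, the kallikrein gene Klk10 and the small GTPase gene Rasl11b had changes of -2.36, -2.28 and -2.11. Wdr95 and the olfactory receptor gene Olfr224 complete the 15, at -2.54 and -2.10. The calls of all 30 genes remained past the threshold in each of the 21 other settings in which they were tested.

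**Figure D1:**
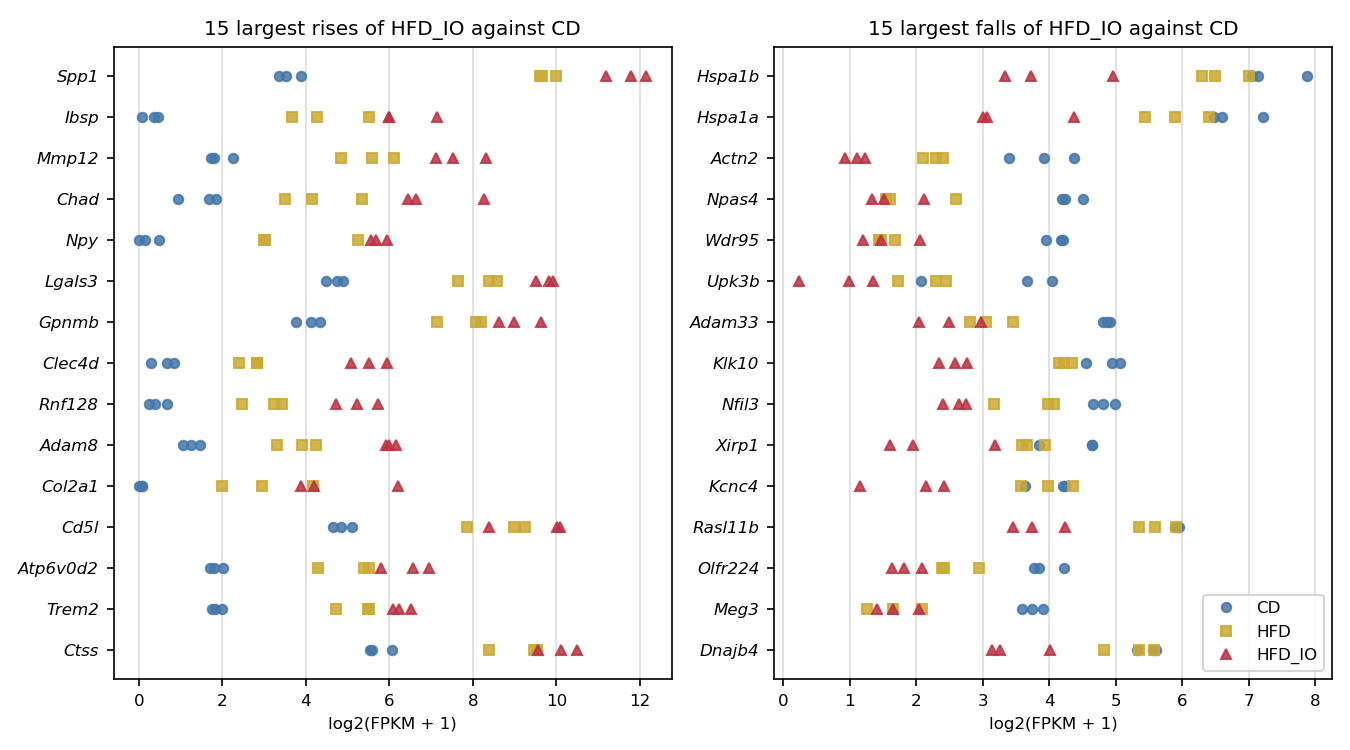
Level of the 15 genes with the largest rises (left) and falls (right) of HFD_IO against CD, as log2(FPKM + 1) on the x axis, with 1 point per library (circles CD, squares HFD, triangles HFD_IO). The HFD_IO and CD points of each gene do not overlap; Spp1 runs from 9.25 to 13.7 FPKM in CD to 2352 to 4558 in HFD_IO.

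Genes of lipid-laden macrophages and of macrophages in general were nearly all higher. Among 23 tested genes of lipid-laden macrophages 22 rose, with a median change of 3.26, and among 23 macrophage markers 22 rose, with a median of 2.91, where the median of all genes tested was -0.01. Cd68, the macrophage lysosomal membrane protein (chromosome 11, 69664213 to 69666153, minus strand, GRCm38), was at 22.9, 21.3 and 24.2 FPKM in CD and at 420, 382 and 338 in HFD_IO (4.00, SE 0.16, adjusted p = 3.5e-06). Mpeg1, a pore-forming protein of macrophages, and Lyz2, lysozyme, rose by 3.95 and 3.81. In bulk tissue more cells of a type and more RNA per cell cannot be told apart, here or in any list below. The macrophage level, as a mean of log2(FPKM + 1), ran from 3.80 to 4.00 in CD and from 6.37 to 6.98 in HFD_IO. Genes of resident and alternatively activated macrophages were mixed: of 15 tested 6 rose and 2 fell (1 without CD_1, CD_2 or HFD_IO_2), with a median of -0.05. Chil3, Vsig4 and Arg1, a chitinase-like protein, a complement receptor and arginase, rose by 1.80, 1.63 and 1.15. Retnla, a resistin-like protein of alternatively activated macrophages, was at 77.9, 35 and 56.5 FPKM in CD and at 6.14, 21.8 and 42.1 in HFD_IO, and these groups overlapped (-1.51, adjusted p = 0.098).

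Lysosome genes rose almost as a block: 31 of 32 tested passed the threshold upward, with a median of 1.42, and 31 had groups that did not overlap. Ctsd, the aspartic protease cathepsin D, was at 205, 192 and 189 FPKM in CD and at 2204, 1982 and 1334 in HFD_IO (3.20, SE 0.22, adjusted p = 2.5e-05). Lipa, the acid lipase that frees cholesterol from ingested lipoproteins, rose by 3.15, and the cysteine protease gene Ctsl by 3.08. Many lysosomal genes carry near their start an element bound by the transcription factors TFEB, TFE3 and MITF, and the upstream promoters of 3 genes that rose are shown to let it be seen. The letters CACGTGAC hold the shorter E-box CACGTG and were read on both strands, in the 300 bases from 250 before to 50 after the start. A gene was counted if any of its promoters held them. They were found in 8 of 24 lysosome genes with a RefSeq promoter (33.3%), and in 2.55% of all 27025 genes with a promoter of that length. Sequences are RefSeq's on GRCm38.p6, 5′ to 3′ on the gene's strand, with these letters (or their reverse complement) in capitals. The Ctsd stretch is chr7:142387883-142387960 (minus), that of Naglu, an enzyme of heparan sulfate breakdown, chr11:101069984-101070061 (plus), and that of Mcoln1, a lysosomal calcium channel, chr8:3500439-3500516 (plus).
Ctsd: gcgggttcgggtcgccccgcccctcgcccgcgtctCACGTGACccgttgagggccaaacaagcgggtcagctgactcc
Naglu: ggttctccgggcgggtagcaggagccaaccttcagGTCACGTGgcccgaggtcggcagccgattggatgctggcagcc
Mcoln1: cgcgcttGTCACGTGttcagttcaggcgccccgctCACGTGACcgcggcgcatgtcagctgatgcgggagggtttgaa
The letters occurred once in the Naglu stretch and in 2 places in that of Mcoln1. A match describes the sequence and does not show that a factor binds there.

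Most genes of cholesterol uptake and efflux rose. Of 23 tested 16 rose and 1 fell, with a median of 1.18. This list shares genes with the macrophage markers, among them Cd68 and Msr1. The scavenger receptor gene Msr1 was at 1.01, 0.50 and 0.658 FPKM in CD and at 21.4, 21.3 and 12.5 in HFD_IO (3.47). Cd36, a fatty acid and oxidised lipoprotein receptor, was at 33.1, 22.4 and 15.3 FPKM in CD and 324, 258 and 179 in HFD_IO (3.40), and Abcg1, a cholesterol exporter, rose by 3.26. Of 22 cholesterol synthesis genes 7 fell, 1 rose and 14 did not pass, with a median of -0.28. Cyp51, lanosterol demethylase, fell by 1.07. After rescaling to TPM 14 of those 22 genes fell, and 2 fell among those tested with the filter of 5 FPKM. The rise was lost without CD_2, CD_3 or HFD_IO_1.

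**Figure D2:**
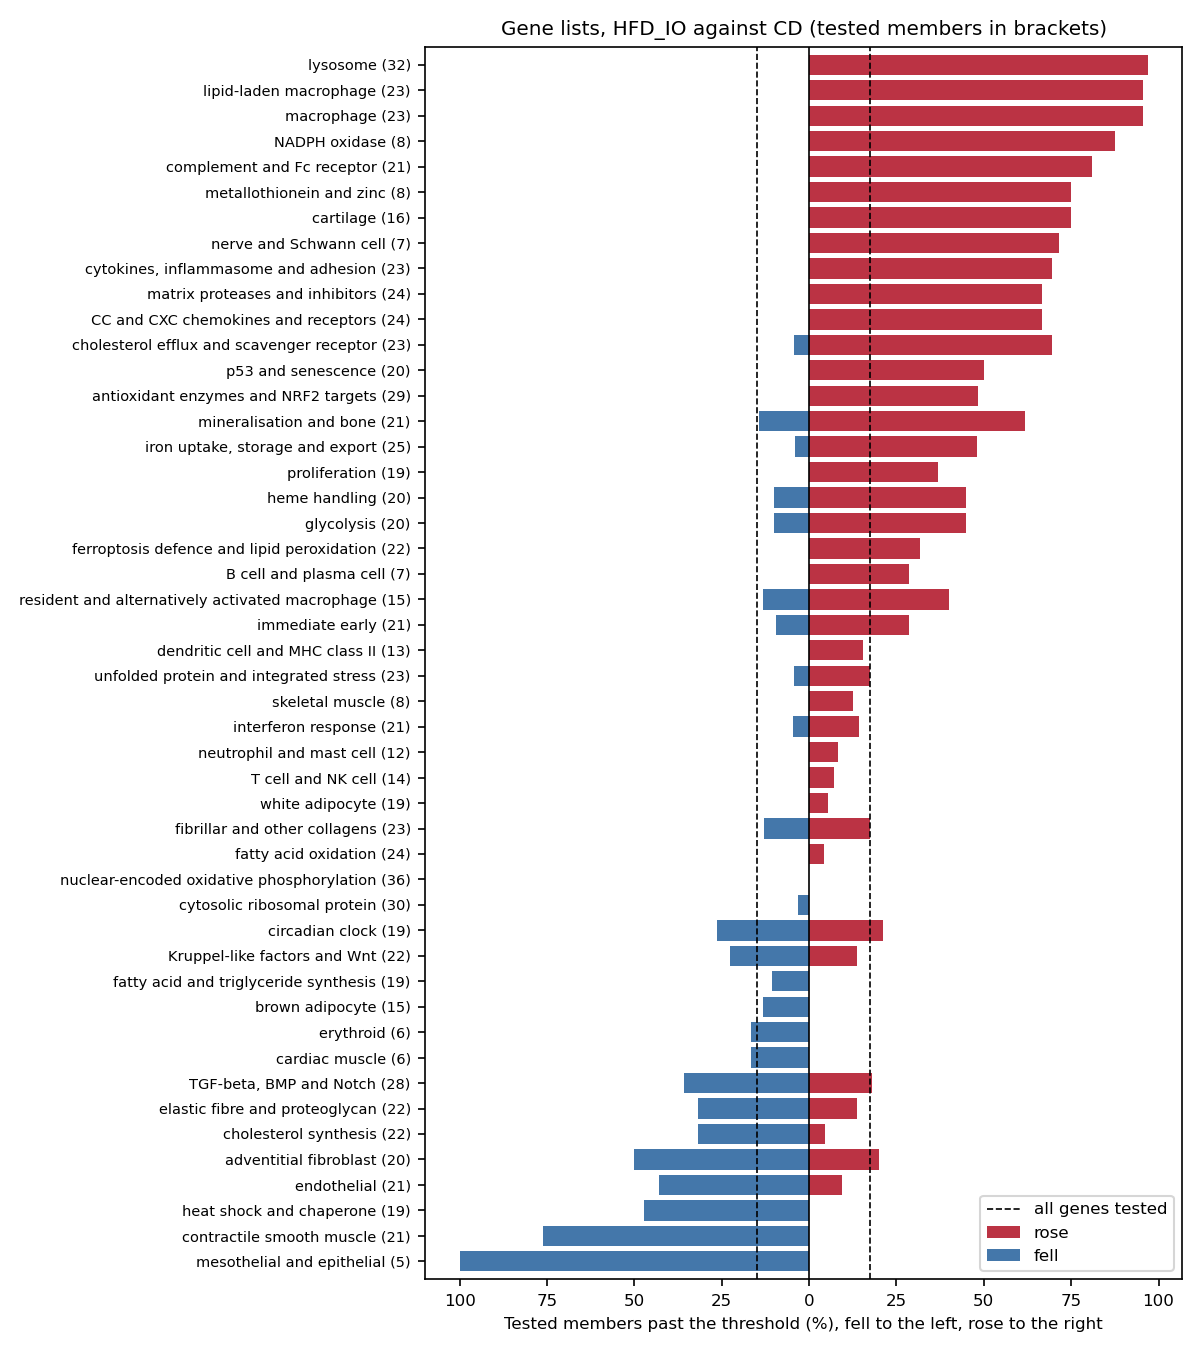
Share of the tested members of each of 48 gene lists that rose (right, red) or fell (left, blue) in HFD_IO against CD, in percent, with the number tested in brackets. Dashed lines mark the shares over all 13883 genes tested, 17.5% higher and 15% lower; the lysosome and macrophage lists lie far beyond the first and the smooth muscle and heat shock lists beyond the second.

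Iron genes that rose included those of ferritin, ferroportin and a phagosomal transporter. Of 25 tested genes of iron uptake, storage and export 12 rose and 1 fell (2 without CD_1), with a median of 0.63. Ftl1, the light chain of ferritin (ENSMUSG00000050708, chromosome 7, 45457944 to 45459884, minus strand, GRCm38), was at 378, 335 and 341 FPKM in CD, 1386, 1346 and 958 in HFD, and 3862, 2959 and 2223 in HFD_IO. No HFD_IO library approached a CD library, and the change was 3.06 (SE 0.23, adjusted p = 3.7e-05). Fth1, the heavy chain with ferroxidase activity, was at 4666, 3279 and 3496 FPKM in CD and at 5161, 6552 and 5551 in HFD_IO. These groups did not overlap, but the change of 0.60 did not pass (SE 0.21, adjusted p = 0.059). It passed without CD_1 (adjusted p = 0.028), by voom (0.027), with library weights (0.0045) and with a filter of 5 FPKM (0.035). It also passed with the length trend removed (0.034), a pseudocount of 5 (0.033) or no intensity trend (0.017), and in no other alternative. Both ferritin genes have processed copies in the genome, so part of their reads may have been counted elsewhere.

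Slc40a1, ferroportin, the only known cellular iron exporter (chromosome 1, 45908068 to 45926523, minus strand, GRCm38), was low in CD, at 0.936, 0.813 and 0.812 FPKM. In HFD_IO it was at 37.1, 23.0 and 9.15 FPKM, with a change of 3.50 (SE 0.41, adjusted p = 0.0003). The HFD libraries lay at 2.35, 1.88 and 0.937 FPKM, which put HFD 1.23 below the midpoint of the 2 end groups (adjusted p = 0.029). That midpoint call did not pass without CD_2 (adjusted p = 0.052), CD_3 (0.053), HFD_2 (0.072), HFD_3 (0.12) or HFD_IO_2 (0.054), with no filter (0.077), with the length trend removed (0.062) or by voom (0.053). Slc11a1, the divalent metal transporter of the phagosome, was at 6.94, 5.17 and 6.27 FPKM in CD and 69.5, 66.9 and 55.2 in HFD_IO (3.19). Lcn2, the siderophore-binding lipocalin, rose by 3.92, Cp, the ferroxidase ceruloplasmin, by 0.94, and Slc11a2, the importer DMT1, by 0.64. Trf, transferrin, rose by 0.83 (adjusted p = 0.013), and missed the threshold when HFD_IO_2 was left out (0.70, adjusted p = 0.056). Tfrc, the transferrin receptor, whose mRNA is destabilised when cells hold more iron, was at 2.90, 1.59 and 2.00 FPKM in CD and at 3.61, 2.75 and 2.29 in HFD_IO, and the groups overlapped (0.30, adjusted p = 0.39). Bmp6, the endothelial ligand that induces hepcidin in liver, fell by 1.65, from 69.4, 134 and 135 FPKM to 40.6, 32.3 and 29.2. Hamp, hepcidin itself, lay under the filter, with no library above 5 reads.

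Several genes of heme breakdown rose. Hmox1, heme oxygenase 1 (chromosome 8, 75093621 to 75100589, plus strand, GRCm38), was at 7.02, 8.55 and 10.1 FPKM in CD, 44.8, 38.5 and 31.0 in HFD, and 324, 159 and 101 in HFD_IO. The 3 groups did not overlap, and the change of HFD_IO from CD was 4.20 (SE 0.36, adjusted p = 6.5e-05). Of 20 tested genes of heme handling 9 rose and 2 fell, or 1 without CD_1, CD_2, HFD_IO_2 or HFD_IO_3. Those that rose include Lrp1, the receptor for heme bound to hemopexin (1.38), Blvra, biliverdin reductase A (1.17), and Slc48a1, the heme exporter of the phagolysosome (0.90). The level of erythroid markers was lower: it ran from 7.43 to 8.49 in CD and from 6.71 to 7.21 in HFD_IO, as a mean of log2(FPKM + 1) over 6 genes, of which 1 fell. That count was 0 without CD_1, CD_2, HFD_2, HFD_IO_1 or HFD_IO_2, 2 without HFD_1, 3 without HFD_3, and 4 after rescaling to TPM or quantile normalization. Hba-a1, alpha-globin, was at 4965, 2567 and 2052 FPKM in CD and 1078, 1052 and 1691 in HFD_IO (-1.26, adjusted p = 0.061). The part of this difference in the results on iron and heme genes was not tested.

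Among antioxidant enzymes and targets of NRF2, a transcription factor released under oxidative stress, 14 of 29 tested rose, with a median of 0.40. Srxn1, sulfiredoxin, was at 9.49, 11.3 and 12.6 FPKM in CD and at 53.5, 36.6 and 32.4 in HFD_IO (1.76, SE 0.18, adjusted p = 0.00013). Prdx1, a peroxiredoxin, rose by 1.78, Txnrd1, thioredoxin reductase, by 1.74, and Gclm, the modifier subunit of the enzyme that limits glutathione synthesis, by 1.20. NRF2 with a small MAF partner binds an antioxidant response element, and upstream stretches of 3 members are shown for that reason. The core letters TGACNNNGC, on both strands, were found in promoters of 9 of 23 matched genes of this list (39.1%). The share over all genes with a promoter of the same length was 13.99%. The capitals mark these letters or their reverse complement on GRCm38.p6. The Prdx1 stretch is chr4:116685431-116685509 (plus), the Txnrd1 stretch chr10:82859079-82859157 (plus), and the Gclm stretch chr3:122245388-122245466 (plus).
Prdx1: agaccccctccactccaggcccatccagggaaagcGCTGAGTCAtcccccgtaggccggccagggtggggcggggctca
Txnrd1: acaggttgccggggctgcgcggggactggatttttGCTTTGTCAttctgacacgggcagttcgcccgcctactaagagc
Gclm: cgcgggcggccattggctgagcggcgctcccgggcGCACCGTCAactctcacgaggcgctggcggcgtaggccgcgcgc
After rescaling to TPM 12 of the 29 genes rose and 2 fell.

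The ferroptosis list holds defences against iron-dependent lipid peroxidation and enzymes that feed it. Of 22 tested genes 7 rose, with a median of 0.25, and that number was 4 without CD_3, without HFD_IO_1 or without HFD_IO_2, and 3 after rescaling to TPM. Acsl4, which loads polyunsaturated fatty acids into phospholipids, rose by 0.85. Gpx4, the peroxidase that reduces lipid hydroperoxides, was at 240, 169 and 187 FPKM in CD and at 209, 204 and 179 in HFD_IO, and the groups overlapped (0.00, SE 0.17, adjusted p = 0.99, 95% interval -0.38 to 0.38). Slc7a11, the cystine importer, lay below the expression filter, with 2.32 FPKM in HFD_IO_1 and 0.40 or less in the other 8 libraries. Of 8 tested metallothionein and zinc genes 6 rose: Mt2, a metal-binding metallothionein, by 1.65, Slc30a1, the zinc exporter of the plasma membrane, by 0.88, and Slc39a1, a zinc importer, by 0.78.

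**Figure D3:**
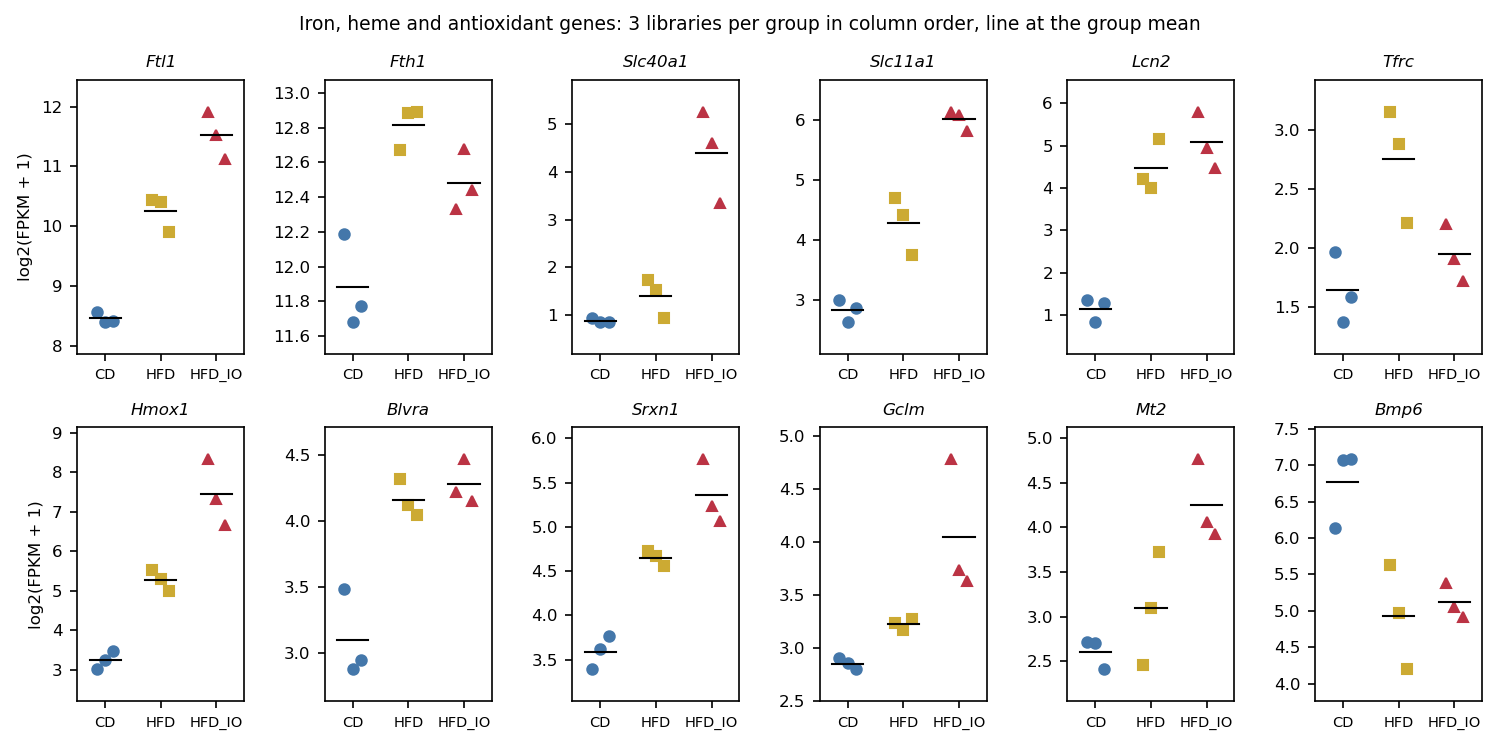
Level of 12 iron, heme and antioxidant genes in the 9 libraries, as log2(FPKM + 1), with a line at each group mean and libraries in column order. Hmox1, Ftl1 and Slc40a1 are highest in HFD_IO_1 and lowest in HFD_IO_3 within their group, and Slc40a1 is near 1 on this scale in all CD libraries.

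Most inflammatory signalling genes tested rose. Of 24 chemokines and chemokine receptors 16 rose, with a median of 1.78. Ccl3 and Ccl4, which attract monocytes and T cells, rose by 3.57 and 3.20: Ccl3 was at 1.99, 0.962 and 1.43 FPKM in CD and at 29.2, 34.3 and 21.5 in HFD_IO. Ccl6 and Cxcl14 rose by 3.06 and 3.19. Of 23 genes of cytokines, inflammasome and adhesion 16 rose, with a median of 1.04, among them the integrin genes Itgax (3.62), Itgb2 (3.36) and Itgam (2.03) and Il1rn, the antagonist of the interleukin-1 receptor (3.12). With a filter of 5 FPKM in 3 libraries fewer genes of that list were tested and 9 rose.

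Complement and Fc receptor genes followed the macrophage markers, with which the list shares 7 genes: 17 of 21 rose, with a median of 2.13. C3ar1, the receptor for C3a, was at 2.90, 2.90 and 3.42 FPKM in CD and 62.4, 70.9 and 55.1 in HFD_IO (3.96, SE 0.16, adjusted p = 3.7e-06). Fcgr4 and Fcgr3, activating receptors for IgG, rose by 3.11 and 3.02. All but 1 of 8 tested subunits and regulators of the NADPH oxidase, which makes superoxide in phagocytes, rose, with a median of 2.15. Its catalytic subunit gene Cybb was at 4.51, 4.86 and 4.42 FPKM in CD and 42.6, 57.7 and 38.5 in HFD_IO (3.06).

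Lists of other leukocytes held few calls. Of 14 T cell and NK cell markers 1 rose, Il7r, the receptor for interleukin-7, which other cells can also express (3.57). Cd8b1, a CD8 chain, was at 19.8, 6.23 and 2.37 FPKM in CD and 3.76, 5.57 and 1.18 in HFD_IO, and the groups overlapped. Of 12 neutrophil and mast cell markers 1 rose, Csf3r, the receptor for the growth factor G-CSF (1.56), and this number was 7 without HFD_IO_1 and 4 without CD_1. S100a9, a calprotectin subunit, differed by 1.81 (adjusted p = 0.052) and ranged from 3.58 to 21.1 FPKM in CD and from 12.6 to 47.5 in HFD_IO. Of 7 B cell and plasma cell markers 2 rose, Cd22 (2.33) and Sdc1 (1.88), while Cd79b, a signalling chain of the B cell receptor, was at 2.66, 1.11 and 1.27 FPKM in CD and 3.21, 3.09 and 2.18 in HFD_IO (0.55, adjusted p = 0.56). Of 21 interferon response genes 3 rose and 1 fell, near the background. The fall was lost without CD_3, HFD_IO_1 or HFD_IO_3, 2 fell after rescaling to TPM, and 6 rose with library weights. Ifi207 and Ifi204, of a family of closely related genes, rose by 1.74 and 1.45.

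Most cartilage genes tested rose. Of 23 listed 16 were tested and 12 passed upward, with a median of 2.02, and in 12 the groups did not overlap. Members near 0 in CD, such as Col2a1 and Col10a1, met the filter only through HFD and HFD_IO libraries. The count therefore partly reflects the filter and cannot be read against the share over all genes. With a filter of 5 FPKM in 3 libraries 6 rose. Col2a1 (chromosome 15, 97975602 to 98004695, minus strand, GRCm38) was at 0.0535 FPKM or less in every CD library and at 17.2, 13.7 and 73.4 in HFD_IO. Col10a1, the collagen of hypertrophic cartilage, was at 0.127 FPKM or less in CD and 32.0, 9.20 and 26.4 in HFD_IO (4.28), and Chil1, a secreted chitinase-like protein, rose by 4.12. Of 21 genes of mineralisation and bone 13 rose and 3 fell, with a median of 1.06. Its member Ibsp was also near 0 in CD and met the filter only through HFD and HFD_IO libraries. The same limit therefore holds for this count. Ctsk, the collagen-degrading protease of osteoclasts and macrophages, was at 20.3, 21.4 and 22.1 FPKM in CD and 294, 235 and 230 in HFD_IO (3.50, SE 0.12, adjusted p = 1.8e-06). Tnfrsf11b, osteoprotegerin, a decoy receptor that restrains osteoclasts, rose by 3.32.

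Matrix-degrading genes rose, and matrix-building genes were mixed. Among 24 matrix proteases and inhibitors 16 rose, with a median of 0.80. Mmp13, a collagenase, was at 1.20, 0.912 and 0.596 FPKM in CD, 2.03, 1.54 and 1.15 in HFD, and 37.1, 23.6 and 19.8 in HFD_IO. It rose by 3.84 (SE 0.23, adjusted p = 1.4e-05), and HFD lay 1.48 below the midpoint (adjusted p = 0.0026). Timp1, an inhibitor of such proteases, rose by 2.75. Of 23 collagens and collagen-modifying enzymes 4 rose and 3 fell, close to the background, with Col8a1, a short-chain collagen, up by 2.81 and P4ha2, a prolyl hydroxylase, down by 0.98. The number that fell was 10 without CD_1, 1 without HFD_IO_2, 5 without HFD_IO_3, 9 after rescaling to TPM and 15 with library weights, and 2 rose without CD_1, CD_2 or HFD_IO_3. In the elastic fibre and proteoglycan list 3 of 22 rose and 7 fell, and 4 fell without CD_3 or without HFD_IO_2. Eln, elastin, was at 524, 798 and 774 FPKM in CD and 350, 210 and 283 in HFD_IO (-1.32, SE 0.24, adjusted p = 0.0031), and Mfap5, a microfibril protein, fell by 1.85. Lum, the proteoglycan lumican, rose by 3.05, from 67.0, 40.5 and 45.1 FPKM to 413, 447 and 395.

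Most contractile smooth muscle genes fell. Of 21 tested 16 fell, with a median of -0.75 and a range of -1.68 to -0.25, and 10 fell without CD_3 or without HFD_IO_2. Myocd, the coactivator that drives the contractile programme, was at 10.7, 30.4 and 22.6 FPKM in CD and 4.76, 4.75 and 6.91 in HFD_IO (-1.68, SE 0.33, adjusted p = 0.0046). Cnn1, calponin, fell by 1.04, Ppp1r14a, an inhibitor of myosin phosphatase, by 1.06 and Ldb3, a Z-disc protein, by 1.68. Acta2, smooth muscle actin (chromosome 19, 34241090 to 34255336, minus strand, GRCm38), was at 4264, 4342 and 4492 FPKM in CD, 5674, 5422 and 6237 in HFD, and 2521, 1863 and 3175 in HFD_IO. The 3 groups did not overlap, with HFD above CD and HFD_IO below it. Its change of -0.83 (adjusted p = 0.019) did not pass without CD_2 (adjusted p = 0.055), CD_3 (0.065), HFD_IO_1 (0.052) or HFD_IO_2 (0.067), or with no filter on low values (0.53). Myh11, smooth muscle myosin, was at 370, 626 and 610 FPKM in CD and 310, 240 and 447 in HFD_IO (-0.69, adjusted p = 0.082).

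Endothelial and adventitial genes were also lower. Among 21 endothelial genes the median was -0.55: 9 fell, but 5 without CD_2 or without HFD_IO_2, and 2 rose, but 1 when any library other than CD_3 was left out. Tek, the receptor Tie2, was at 40.6, 47.0 and 47.8 FPKM in CD and 17.4, 17.4 and 12.6 in HFD_IO (-1.47, SE 0.23, adjusted p = 0.0015), and Icam2 and Ptprb fell by 1.46 and 1.19. Pecam1, the junction protein CD31, was at 216, 296 and 281 FPKM in CD, 117, 102 and 63.6 in HFD, and 120, 124 and 121 in HFD_IO (-1.10). Of 20 adventitial fibroblast genes 10 fell and 4 rose, with a median of -0.49: Pi16, a marker of adventitial progenitors, fell by 1.66, while C3, complement component 3, rose by 1.37.

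In the list of TGF-beta, BMP and Notch signalling 5 of 28 rose and 10 fell. Ligands of 1 family went both ways: Tgfb1 was at 14.6, 17.4 and 18.5 FPKM in CD and 51.2, 53.4 and 60.9 in HFD_IO (1.66), and Tgfb3 at 88.9, 108 and 119 in CD and 34.8, 31.9 and 38.0 in HFD_IO (-1.56). Grem1, a secreted antagonist of BMPs, was at 0.59, 0.629 and 0.278 FPKM in CD, 1.24, 1.49 and 0.89 in HFD, and 7.43, 20 and 21.4 in HFD_IO (3.41), with HFD 1.15 below the midpoint (adjusted p = 0.018). This midpoint call of Grem1 was lost without HFD_3 (adjusted p = 0.071), with no filter (0.051) and by voom (0.17). Of 22 Kruppel-like factors and Wnt genes 3 rose and 5 fell, among them the secreted Wnt antagonists Frzb and Sfrp5 (2.24 and 2.64) and Sfrp1 (-1.28), and the ligand gene Wnt2b (-1.32).

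Of 19 tested heat shock and chaperone genes 9 fell and 10 did not pass, with a median of -0.59, and 16 fell after rescaling to TPM. Hsph1, an Hsp110 chaperone, was at 55.2, 58.0 and 39.7 FPKM in CD and 14.4, 11.6 and 14.0 in HFD_IO (-1.85, SE 0.35, adjusted p = 0.0036). Heat shock factor binds inverted repeats of GAA, and the upstream stretch of the largest fall shows one. The letters GAANNTTC, which are their own reverse complement, occurred in promoters of 9 of 13 matched genes of this list (69.2%). The share over all genes with a promoter was 9.04%. For Hspa1b the stretch with these letters in capitals is chr17:34959300-34959377 on the minus strand of GRCm38.p6.
Hspa1b: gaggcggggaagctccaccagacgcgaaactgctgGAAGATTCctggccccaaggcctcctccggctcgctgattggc
The same 78 bases stand before Hspa1a, at chr17:34972218-34972295 on the minus strand. Hspa1a was at 96.4, 147 and 88.0 FPKM in CD and 7.00, 7.40 and 19.8 in HFD_IO.

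Other stress and growth lists were mixed. Of 23 genes of the unfolded protein and integrated stress responses 4 rose and 1 fell, near the background, with Sdf2l1, an endoplasmic reticulum cochaperone, up by 1.11 and Sesn2, a stress-induced regulator, up by 0.67. The number that fell was 0 without CD_2, CD_3 or any 1 HFD_IO library, 2 without HFD_1 or HFD_3, and 5 after rescaling to TPM, where 2 rose, while 7 rose with library weights. Of 20 p53 and senescence genes 10 rose, with a median of 0.44, and 6 rose without CD_2 and 5 after rescaling to TPM. The member Cdkn2a met the filter only through libraries outside CD, so that count partly reflects the filter. Cdkn2a, which codes for cell cycle inhibitors, was at 0.186, 0.435 and 0.187 FPKM in CD and 4.61, 8.66 and 10.3 in HFD_IO (2.75, SE 0.24, adjusted p = 7.3e-05), and Gadd45a, a damage-induced gene, rose by 2.62. Of 19 proliferation genes 7 rose, with Pcna, the replication clamp, up by 0.83. That number was 3 without CD_2, CD_3, HFD_IO_1 or HFD_IO_2, 12 without CD_1, 2 after rescaling to TPM and 16 with library weights. Of 21 immediate early genes 6 rose and 2 fell (1 without CD_2, CD_3 or HFD_IO_2, and 4 without HFD_IO_3): Egr2 rose by 1.70, Junb by 1.41 and Myc by 0.84, beside the fall of Npas4.

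Of 19 circadian clock genes 4 rose and 5 fell, or 3 without CD_2 and 9 with library weights. Bhlhe40 and Bhlhe41, repressors of the clock, rose by 1.33 and 1.37, and Npas2, a partner of BMAL1, fell by 1.80, from 8.21, 7.73 and 7.30 FPKM to 1.77, 1.34 and 1.44. Nfil3, which counteracts the PAR bZIP activators, was at 30.9, 27.0 and 24.2 FPKM in CD and at 4.27, 5.24 and 5.70 in HFD_IO. The part of the time of harvest in these values was not tested.

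Lists of energy metabolism held few calls apart from glycolysis. For oxidative phosphorylation, 0 of 36 nuclear-encoded genes passed the threshold by limma in either direction, and 1 was higher and 0 lower at an unadjusted p below 0.05. Voom on the recovered reads called 0 as well, library weights called 4 higher, and rescaling to TPM or quantile normalization called 2 lower. Without CD_1 or without HFD_3 the count was 1 higher. Their median change was 0.06, with single values from -0.39 to 0.56, and the 95% interval of 35 of the 36 lay within 1 log2 unit of 0. Cox5a, a subunit of complex IV, had the largest difference, from 29.5, 19.3 and 17.1 FPKM in CD to 30.4, 36.3 and 29.5 in HFD_IO (0.56, adjusted p = 0.10). Of 24 fatty acid oxidation genes 1 rose, Cpt1a, which commits fatty acids to mitochondrial entry (0.91), or 4 without HFD_3 and 2 without HFD_IO_1. Of 20 glycolysis genes 9 rose and 2 fell. Hk3, a hexokinase of myeloid cells, was at 2.01, 2.56 and 2.25 FPKM in CD and 48.4, 40.4 and 31.4 in HFD_IO (3.63), and Pgam1, Slc2a1 and Pgk1, of lower glycolysis and glucose uptake, rose by 1.02, 0.98 and 0.94. Fatty acid and triglyceride synthesis held 2 genes that fell among 19, with Mlxipl, the carbohydrate-responsive factor ChREBP, down by 1.05. That count was 7 after rescaling to TPM and 1 without CD_2, CD_3, HFD_IO_2 or HFD_IO_3. Of 30 ribosomal protein genes 1 fell, a call lost without CD_1, CD_3 or any HFD_IO library, and the list median was -0.03.

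Markers of tissues around the aorta were measured beside these lists. The white adipocyte level, over 19 genes, was 5.45, 5.14 and 4.58 in CD and 4.31, 5.80 and 5.20 in HFD_IO, and 1 of the 19 rose, Cebpa, an adipocyte and myeloid transcription factor (1.57). The brown adipocyte level was 3.18 to 3.6 in CD and 3.0 to 3.37 in HFD_IO. The skeletal muscle level was 1.46 to 1.84 in CD and 1.48 to 2.50 in HFD_IO, and the cardiac muscle level 1.42 to 1.93 and 0.82 to 2.65, with HFD_IO_2 the highest of the 9 libraries. All 5 tested mesothelial and epithelial markers, of 12 listed, fell, with levels of 1.89 to 3.21 in CD and 0.98 to 1.34 in HFD_IO. Under the filter, Krt7, Wt1, Lrrn4, Upk1b and Muc16 were lower in every HFD_IO library than in any CD library. Epcam and Cdh1 went the other way: Epcam was at 0.0533 FPKM or less in CD and at 0.0795, 0.281 and 2.14 in HFD_IO. Msln, mesothelin, was at 12.6, 2.82 and 7.01 FPKM in CD and 0.153, 1.90 and 0.884 in HFD_IO (-2.01). The count of 5 was 2 without CD_1, CD_3 or HFD_IO_2, and 3 without HFD_IO_1 or HFD_IO_3. Of 16 nerve and Schwann cell markers 7 were tested, and 5 rose, or 3 without CD_2, CD_3 or HFD_IO_3. Tubb3, a neuronal tubulin, and Mbp, myelin basic protein, rose by 2.19 and 1.21 beside Npy. Npy met the filter only through libraries outside CD, so the count partly reflects the filter. Under the filter, the neuronal members Th, Dbh, Nefl, Nefm and Snap25 were at 0.336 FPKM or less in every CD and HFD_IO library. Prph, another neuronal member, was at 0.822 FPKM or less there. In HFD_1 Th, Dbh and Prph were at 16.03, 11.85 and 31.73 FPKM, against 0.893 or less in all other libraries. The nerve and Schwann cell level was 4.18 in HFD_1 and 2.89 and 2.92 in HFD_2 and HFD_3. The part of fat, muscle, nerve and mesothelium in the results was not tested.

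The diet without iron did not simply lie halfway. HFD was compared with the midpoint of CD and HFD_IO, a contrast whose estimate is uncorrelated with the difference between those 2 groups in this balanced design. HFD lay above the midpoint in 2362 genes (17.0%) and below it in 1972 (14.2%). Without HFD_3 these numbers were 1213 and 926, and without HFD_2 1420 and 986. HFD could also lie outside both ends: of 13883 genes, every HFD library was above all CD and HFD_IO libraries in 1757 and below them in 1253. Among the 2427 genes that rose in HFD_IO, HFD was above the midpoint in 420 (17.3%), below it in 249 (10.3%) and not separable from it in 1758. Among the 2089 genes that fell, HFD was below the midpoint in 610 (29.2%) and above it in 254 (12.2%). In a gene that fell, a value below the midpoint means that the HFD level was nearer to HFD_IO than to CD. Rescaling to TPM put 885 genes above and 3961 below and moved the median of all genes on this contrast from 0.02 to -0.22, and with the gene length trend taken out of every library 1574 were above and 1576 below. The median on this contrast fell with gene length, from 0.33 in the shortest of 5 equal classes of protein-coding genes to -0.21 in the longest, while that of HFD_IO against CD went from 0.05 to -0.05. The part of gene length in the HFD values was not tested.

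Some lists with few calls between CD and HFD_IO had many on this contrast. In 35 of 36 genes of oxidative phosphorylation HFD was above the midpoint, with a median of 0.80, and in 21 of 36 without HFD_3. The list level was 6.03, 5.71 and 5.68 in CD, 6.39, 6.53 and 7.03 in HFD and 5.79, 6.03 and 5.77 in HFD_IO. The white adipocyte level was also highest in HFD_3, at 6.46 against 5.55 and 5.56 in the other HFD libraries. So was the brown adipocyte level, at 4.49 against 3.59 and 3.76, and it lay between 3.0 and 3.6 in CD and HFD_IO. The part of fat in these values was not tested. Of 24 fatty acid oxidation genes 15 lay above, 3 without HFD_3 and 9 without CD_3 or without HFD_2. The endothelial list was the reverse, with 13 of 21 genes below the midpoint (8 without HFD_3) and a median of -0.56, and the contractile list had 12 of 21 above, with a median of 0.58. The erythroid level was 8.24, 8.34 and 9.59 in HFD, above all HFD_IO libraries.

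**Figure D4:**
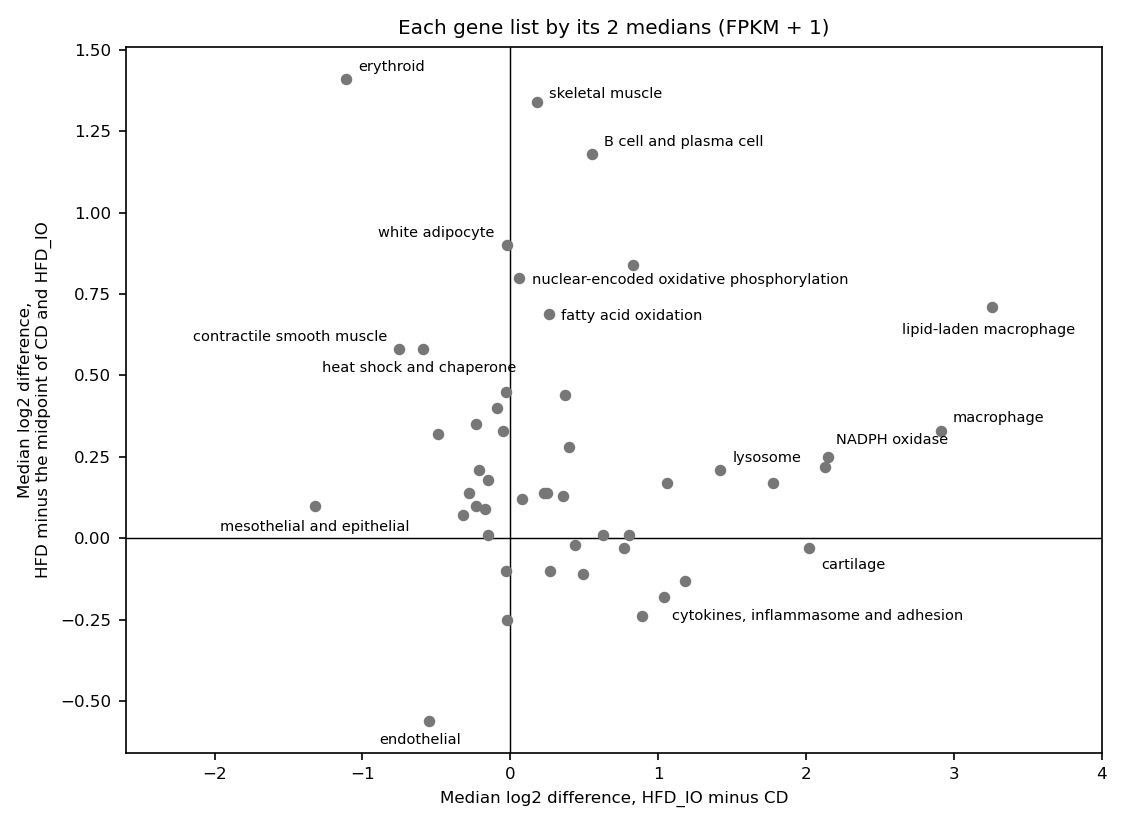
Each of the 48 gene lists (points, 16 named) by its median log2 difference of HFD_IO minus CD on the x axis and of HFD minus the midpoint of those groups on the y axis. The macrophage and lipid-laden macrophage lists lie farthest right, at 0.33 and 0.71 on y, oxidative phosphorylation lies near 0 on x and at 0.80 on y, and the endothelial list lies lowest at -0.56.

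Single genes lay further from the midpoint. Ifi202b, an interferon-inducible gene of the p200 family (chromosome 1, 173962568 to 173982744, minus strand, GRCm38), was at 6.97, 9.06 and 9.36 FPKM in HFD and at 0.0324 or less in all 6 CD and HFD_IO libraries. The labels name no mouse strain, and the part of a strain difference between the groups in the HFD values was not tested. Ucp1, the uncoupling protein of brown fat, was at 189, 209 and 321 FPKM in HFD, 43.5 to 81.0 in CD and 31.6 to 55.2 in HFD_IO. Slpi, a secreted protease inhibitor, and Cxcl13, the B cell chemokine, lay 2.36 and 2.33 above the midpoint, and Retnla 2.50 above. Acta1, skeletal muscle actin, lay 2.86 above (adjusted p = 0.041), with 51.3 and 31.3 FPKM in HFD_2 and HFD_3 and 2.16 in HFD_1, and did not pass without HFD_2 (2.07, adjusted p = 0.16) or HFD_3 (2.42, adjusted p = 0.15). It also missed the threshold without CD_1 (adjusted p = 0.062), CD_2 (0.078), HFD_IO_1 (0.075) or HFD_IO_3 (0.076). Slc25a34, a mitochondrial carrier, was at 26.1, 27.8 and 29.5 FPKM in CD, 2.10, 2.08 and 2.14 in HFD and 7.76, 6.77 and 8.72 in HFD_IO, 2.35 below the midpoint (adjusted p = 2.7e-06). Its neighbour Tmem82 (chromosome 4, 141613376 to 141618633, minus strand) was 1.59 below, and Npas2 and Igsf9, an immunoglobulin superfamily protein, 1.49 and 1.56 below. Malat1, a nuclear noncoding RNA, was at 109, 156 and 154 FPKM in CD, 44.0, 24.7 and 32.6 in HFD and 105, 79.7 and 96.6 in HFD_IO, 1.76 below the midpoint.

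**Figure D5:**
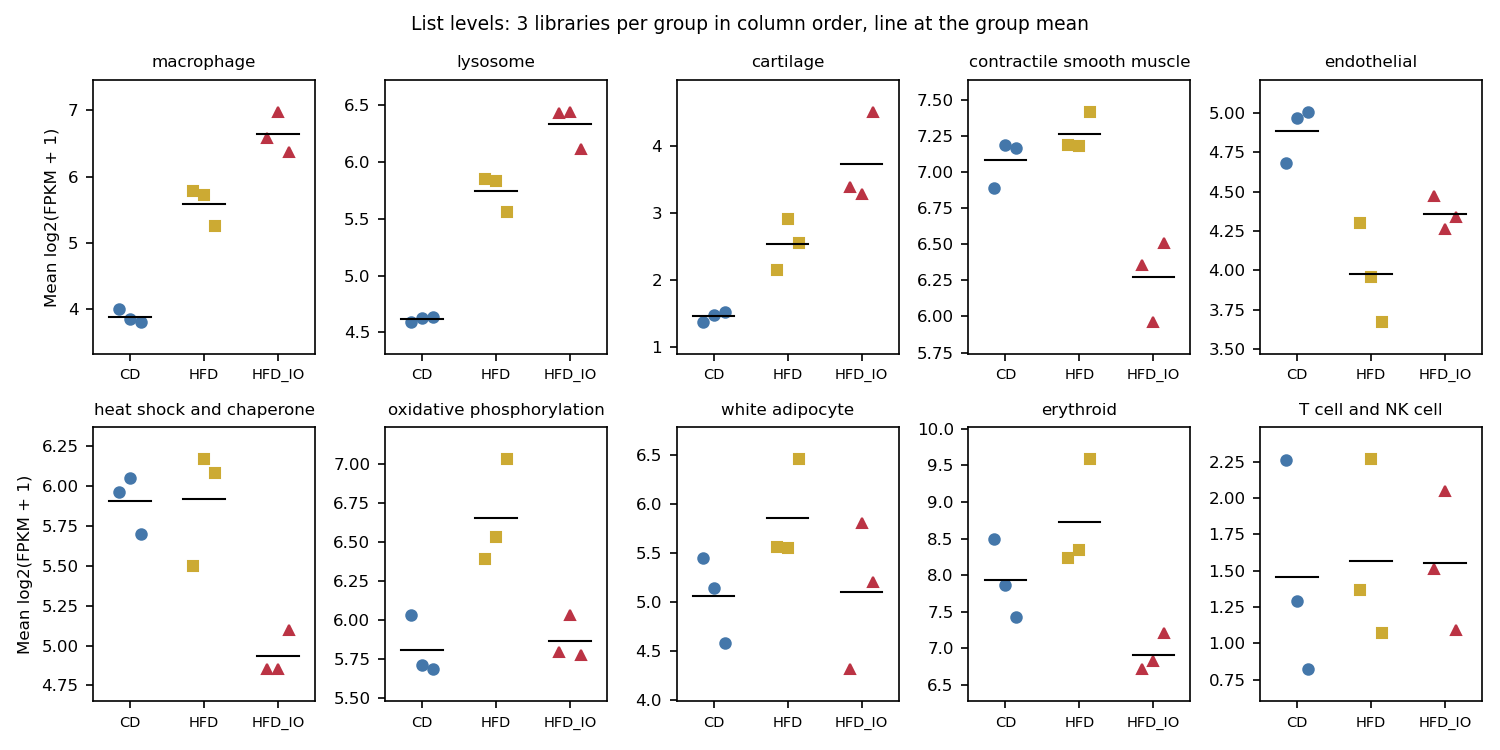
Mean log2(FPKM + 1) over the tested members of 10 gene lists in each library (points in column order, line at the group mean). Macrophage, lysosome and cartilage levels step up from CD through HFD to HFD_IO, contractile and heat shock levels are lowest in HFD_IO, and the oxidative phosphorylation level is highest in HFD_3 at 7.03.

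The 3 HFD_IO aortas differed from each other by gene group. Over all 2427 genes that rose, HFD_IO_2 was the highest of the 3 in 53.5%, HFD_IO_1 in 26.0% and HFD_IO_3 in 20.5%. Of the 22 macrophage markers that rose, 20 were highest in HFD_IO_2, as were 15 of 17 complement and Fc receptor genes and all 7 NADPH oxidase genes that rose. Of the 14 antioxidant genes that rose, 11 were highest in HFD_IO_1, where Hmox1 was at 324 FPKM against 159 and 101, and so were 7 of 12 iron genes and 4 of 6 metallothionein and zinc genes. HFD_IO_3 was highest in 10 of the 12 cartilage genes and 10 of the 13 mineralisation genes that rose, with Chad at 307 FPKM against 86.4 and 98.8, and in none of the 31 lysosome genes. With 1 library behind each of these counts, they describe these aortas, and no test was made.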

How the data were processed

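RNA of 9 mouse aortas (3 CD, 3 HFD, 3 HFD_IO) had been sequenced from NEBNext libraries, per the labels' protocols. The authors deposited 1 table of FPKM per gene and library. The submitters' processing notes name HISAT2 and hg38, a human build, but the gene identifiers are of mouse: 54409 of 54532 are in GENCODE M21, 98.3% of these with the same coordinates on GRCm38. No source used here states strandedness, counting tool or annotation release, so sense and antisense genes cannot be told apart. Sample titles do not hold the column numbers, so each column was tied to its group only. Multiplied by gene length, 100% of values fell on whole reads, within 0.05 of a read, and these recovered reads gave the depth. Paired libraries of a group differed in their recovered reads by more than counting noise (chi-square per degree of freedom 6.41 or more). No library was therefore a mere repeat of the reads of another in its group. This does not show that each came from a separate aorta. CD_2 and CD_3 were the closest pair, at 6.41, and the other pairs ran from 26.2 to 56.4.

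Genes reaching 1 FPKM in 3 or more of the 9 libraries (13883) were kept, and log2(FPKM + 1) was fitted with limma 3.58.1 (R 4.3.3) using 3 group means and an intensity trend of the variance. Benjamini-Hochberg adjustment of p-values ran over all 13883 genes. The threshold was 0.05. The contrasts were HFD_IO minus CD and HFD minus the midpoint of both. Gene lists (48, of which 1037 of 1038 entries were found, 2 by an older symbol) are described by counts and medians, without a test of the list. The genes and lists were chosen with earlier results of these data known. Named genes are the 15 largest rises and falls with groups that do not overlap, the 6 largest each way on the midpoint contrast, up to 4 largest per list and a fixed set of iron and atherosclerosis genes, without predicted genes, pseudogenes, receptor segments and models under 300 bases. Not every gene that meets the rule is named. The calculation was tested on simulated data for HFD_IO against CD with 13748 genes, of which far fewer were changed than were called here. In it 97.0% of genes changed 4-fold, 28.4% of those changed 2-fold and 0.04% of unchanged genes were called. Alternatives were other pseudocounts (0.1 and 5), filters, scalings and variance models, library weights, voom on recovered reads, protein-coding genes, gene length and omission of each library. Promoters are RefSeq's, matched by symbol.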

Additional observations from a re-analysis of the deposited data

How the results depend on the processing

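Genes called for HFD_IO against CD numbered 2427 higher and 2089 lower. They numbered 1528 and 3800 after rescaling to TPM, 1367 lower among the 8441 genes with 5 FPKM in 3 libraries, and 3409 lower with library weights. Leaving out each library gave 1785 to 2573 higher and 1260 to 2463 lower. HFD was above the midpoint in 2362 genes and below it in 1972. These numbers were 885 and 3961 after rescaling to TPM, 1574 above with the gene length trend removed, and 1117 below with the filter of 5 FPKM. Leaving out each library gave 1213 to 2915 above and 926 to 2625 below. The cause was not tested, except that the stricter filter tests fewer genes. No gene called in both the reported fit and any of the 21 alternatives changed direction. Of the 164 named genes that passed for HFD_IO against CD, 146 passed in every alternative in which they were tested. No paired analysis was possible because the sample titles number the aortas from 1 to 9 across the groups and share no replicate number. In the simulation 28.4% of 2-fold changes passed, but far fewer genes were changed there than were called in these data. That share need not hold here, where 920 genes that rose and 442 that fell changed by at least 1 log2 unit. With 3 libraries a group, real changes can be missed, and genes under 1 FPKM were not tested.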

Other observations

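Some genes were nearly absent in CD and at a clear level in HFD_IO. Of the tested genes under the same exclusions as the named ones, 20 were below 0.15 FPKM in all 3 CD libraries and at 1 FPKM or more in all 3 HFD_IO libraries, and 0 showed the reverse. This pattern was defined after the values were seen, and no test was made of it. Beside Col2a1 and Col10a1 the 20 include further cartilage genes: Cnmd, an inhibitor of vessel growth in cartilage, Col9a2, a chain of type IX collagen, Ucma, a secreted protein of the growth plate, Scrg1 and Clec3a. They also include genes of fused or activated macrophages: Dcstamp, which is needed for the fusion of osteoclasts, Siglec15, a sialic acid receptor of osteoclasts, and Nos2, the inducible nitric oxide synthase.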
